A study of Mus musculus with 26 samples.

Results

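The cadherins and protocadherins, surface proteins that cells use to recognise and hold one another, were described in single amacrine cells, the inhibitory interneurons of the inner retina. Members were the genes with symbols that start with Cdh and a digit, with Pcdh, or with Celsr. Cdh22 was left out of the set. This gave 58 of the 18193 genes named by a probe set of their own. They comprised 5 type I and 10 type II classical cadherins, 5 other cadherins, 12 protocadherins outside the gene clusters, 22 beta protocadherins (Pcdhb), 1 gamma protocadherin (Pcdhgc4) and 3 Celsr genes. The rule used symbols and no measured value, although the set was drawn up with earlier results of these data known. Where a gene had several probe sets, the one with the highest average log2 signal stood for it. A cell counted as having a gene, called detected below, when that signal was 1000 or more.

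Expression was measured in 26 cells, with 1 cell on each Affymetrix array. The cells carried green fluorescent protein under the pSynapsin or the pNdrg4 promoter, put into the mouse retina at P0 by electroporation in vivo or ex vivo, and were picked one at a time from dissociated retinas, so each promoter limits which cells could be sampled. The groups were 1 pSynapsin cell labelled E19 and 2 pNdrg4 cells labelled P4, all cultured for 4 days; at P5, 4 pSynapsin cells and 5 pNdrg4 cells cultured for 5 days, and 10 pNdrg4 cells with no culture stated; and at P8, 2 pSynapsin and 2 pNdrg4 cells cultured for 8 days. Cells are named below by age and by their own label. At P5 the cells E1 to E4 were the pSynapsin cells, names with C or D were the cultured pNdrg4 cells, and names with A or B were the pNdrg4 cells with no culture stated. At P8 the A cells carried pNdrg4 and the B cells pSynapsin, and both P4 cells carried pNdrg4. No animal, retina or culture was named for any cell, so a group counted as 1 sample and no test between groups was possible. An SD below is a spread over cells.

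The amacrine label was borne out by Pax6, detected in 26 of 26 cells, by the vesicular inhibitory transmitter transporter Slc32a1 in 22 cells and by Tfap2b in 20 cells. The cholinergic genes of starburst cells (Chat, Slc18a3, Slc5a7) and defining genes of dopaminergic amacrine cells (Th, Ddc, Slc6a3) and horizontal cells (Lhx1, Onecut1, Calb1) were below 1000 in every cell, while 2 further starburst genes, Sox2 and Megf10, were detected in 4 and 2 cells. Genes of other retinal cells were also read: 8 of 10 rod genes (Rom1 in 13 cells, Sag in 12, Pdc in 11, Nrl in 10), 7 of 8 Müller glia genes (Glul in 18 cells), 3 of 5 bipolar, 4 of 6 ganglion cell and 4 of 5 progenitor genes were detected in at least 1 cell. Their part in the members' values was not tested. The cells held 1909 to 4180 detected genes each, with a median of 3253.5. By transmitter markers, 13 cells had the glycine transporter Slc6a9 without the GABA-synthesising enzyme Gad1 and 10 had Gad1 without Slc6a9. The remaining cells were 1 with both and 2 with neither. The number of arrays limits the precision of every value here, each cDNA was made by 35 cycles of PCR from 1 cell, and a signal below 1000 does not show that a gene was silent.

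Cadherins bind one another across the gap between cells in a calcium-dependent and mostly like-to-like way. Classical cadherins anchor to the actin skeleton through catenins, and in the mouse retina type II cadherins help to sort neurites into layers. Clustered protocadherins are chosen promoter by promoter in each neuron, so that single neurons carry different sets, which in mouse starburst amacrine cells lets the branches of one cell avoid each other. The Celsr genes encode large cadherins with a receptor-like membrane domain that act in planar cell polarity and in axon and dendrite growth.

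The family was read in few cells per gene. In all, 30 of 58 members were detected in at least 1 cell, where 55.9% of all genes were, and 18 members were detected in at least 3 cells, against 41.2% of all genes. No member was detected in more than 13 cells, as 18.5% of all detected genes were. Of the 30 detected members, 22 (73.3%) were detected in 1 to 5 cells, against 48.3% of all detected genes. The share that was bright in few cells was close to that of all genes: 4 members (6.90%) were detected in 1 to 5 cells with a highest signal of at least 10000, against 4.97% of all genes. Those were Cdh11, Pcdhb16, Pcdhb9 and Pcdhb22. Among genes detected in 1 to 5 cells the share this bright was 18.2% of members and 18.4% of all genes, so the members were as often bright as other genes seen in few cells. Single cells held 1 to 9 detected members, with a median of 5. The 26 cells had 26 distinct sets of detected members. No other gene lists with like counts were compared, so this describes these cells only.

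**Figure D1:**
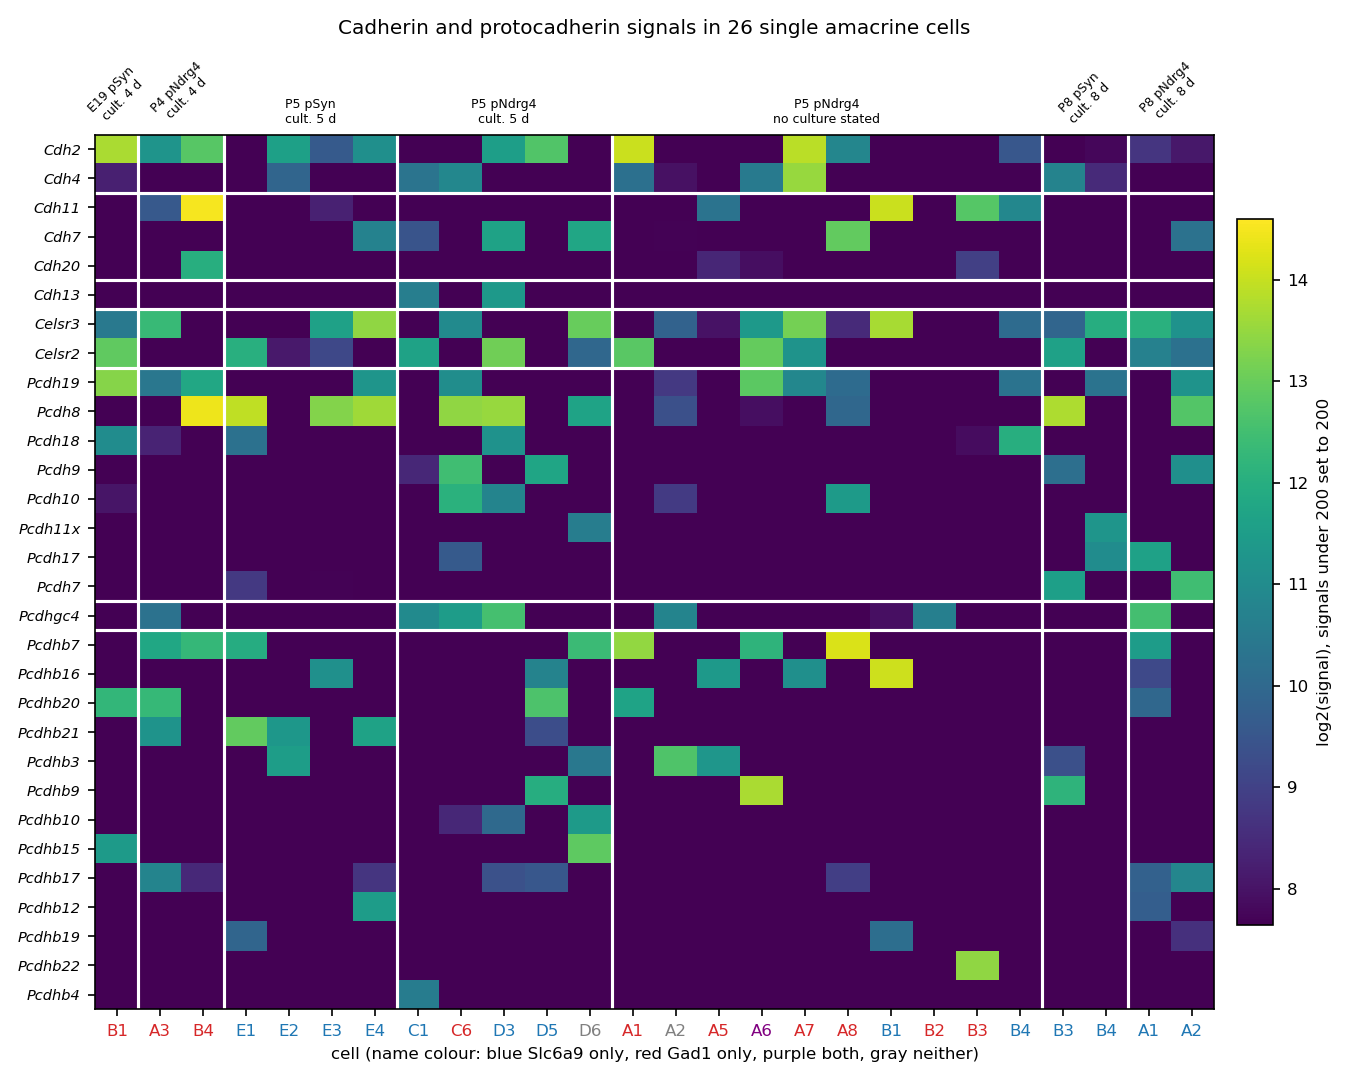
The 30 members detected in at least 1 cell (down the page, by subfamily) in the 26 cells (across, by group), coloured by log2 signal with values under 200 set to 200; the colour of a cell's name gives its transmitter class. Most genes are dark in most cells, Celsr3 is detected in 13 cells, and the beta protocadherins are detected in 1 to 8 cells each.

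The threshold of 1000 split few values. Of 1508 readings of a member in a cell, 135 were at or above 1000, with 14 of them up to 1250, and 8 more lay from 800 up to 1000. The 28 members below 1000 in every cell included 7 of 10 type II cadherins (Cdh5, Cdh6, Cdh8, Cdh9, Cdh10, Cdh18 and Cdh19), the type I cadherins Cdh1, Cdh3 and Cdh15, and Cdh16, Cdh17, Cdh23 and Cdh26. They also included Celsr1, the protocadherins Pcdh1, Pcdh12, Pcdh15 and Pcdh20, and 9 beta protocadherins (Pcdhb1, Pcdhb2, Pcdhb5, Pcdhb6, Pcdhb8, Pcdhb11, Pcdhb13, Pcdhb14 and Pcdhb18). The highest signal of any of these was 630.7, for Pcdhb8. Of 46 further probe sets for the members, 30 were below 1000 in every cell, and the other 16 gave 43 detections, of which 33 (76.7%) fell in cells where the chosen probe set was also detected. None of them detected a member that the chosen probe set had missed in every cell.

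Among the type I classical cadherins, Cdh2 (N-cadherin, the main neural cadherin) and Cdh4 (R-cadherin, named for the retina) were detected. Cdh2 reached 13341 in the E19 cell and 2410 and 7086 in the P4 cells. In the P5 pSynapsin cells it was 104, 3086, 787 and 2194 for E1 to E4. It was 27.9 in C1, 9.07 in C6, 2957 in D3, 6699 in D5 and 139 in D6 among the cultured P5 pNdrg4 cells. Cdh2 thus stood high in all 3 of the youngest cells and in part of each P5 group. The 10 P5 cells with no culture stated spanned 16.7 to 16752 with a median of 120, and 3 of them (A1, A7 and A8) had it. At P8 it was 116, 217, 420 and 271 for B3, B4, A1 and A2, below the threshold in all 4 cells. A second Cdh2 probe set was detected in 4 of these 10 cells and in no other. It read 10532 in the E19 cell but 679 and 399 in the P4 cells, below the threshold, so detection in the P4 cells rests on 1 probe set.

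Cdh4 was detected in 6 cells and was bright in 1 of them. P5 cell A7 had 11823, and the next were P5 cell C6 at 1876, P8 cell B3 at 1728, P5 cell A6 at 1449, P5 cell C1 at 1283 and P5 cell A1 at 1196. The E19 and P4 cells lay at 58.6 to 308. Apart from A7, the Cdh4 readings were below 2-fold of the threshold, and P5 cell E2 sat just below it at 968. A second Cdh4 probe set was detected in C6 (2917) and P8 cell B3 (2138) and in no other cell.

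Of the type II cadherins, Cdh11 and Cdh7 were detected in 5 cells each and Cdh20 in 1. Cdh11, a cadherin also known from bone-forming and mesenchymal cells, had the highest signal of the classical cadherins: 23384 in P4 cell B4, 16801 in P5 cell B1, 6998 in P5 cell B3, 1864 in P5 cell B4 and 1247 in P5 cell A5. In the other 21 cells it was at most 770, and in P8 cell A1 it was 0.649. A second Cdh11 probe set shared 4 of its 5 detected cells with the chosen one. It read 50.3 in P5 cell B3 and 3255 in P5 cell B2. Its highest signal was 5321, in P5 cell B4, so the place of Cdh11 among the members bright in few cells rests on the chosen probe set. All 5 cells with Cdh11 by the chosen probe set carried the pNdrg4 reporter, and the 4 P5 cells among them had no culture stated. Most of the cells measured carried that reporter, and no share over other genes detected in 5 cells was computed. Cdh7 was detected in P5 cells A8 (7843), D6 (3486), D3 (3206) and E4 (1682) and in P8 cell A2 (1222), with a next highest reading of 694 in P5 cell C1. Taking the highest or the median probe set in each cell gave 8 or 2 cells with Cdh7. Cdh20 reached 4093 in P4 cell B4, the cell with the highest Cdh11, and at most 501 elsewhere. Among the remaining cadherins only Cdh13 (T-cadherin, held to the membrane by a lipid anchor) was detected, at 2644 in P5 cell D3 and 1581 in P5 cell C1.

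Celsr3 was the member detected in the most cells. It was detected in 13 of 26 cells (50.0%; exact Clopper-Pearson 95% interval 29.9 to 70.1%, counting error only) and Celsr2 in 10 cells (38.5%; 20.2 to 59.4%). Celsr3, which guides axon tracts and is typical of postmitotic neurons, was 1410 in the E19 cell and 5182 and 18.9 in the P4 cells. In the P5 pSynapsin cells E1 to E4 it was 4.36, 13.3, 3154 and 11209. Both levels, high and near 0, thus occurred within a group of 4 cells. In the cultured P5 pNdrg4 cells C1, C6, D3, D5 and D6 it was 13.9, 2018, 16.6, 85.7 and 8136, and in the 10 cells with no culture stated it spanned 7.02 to 13317 with a median of 631. At P8 it was 958, 3998, 4275 and 2329 in B3, B4, A1 and A2, and none of these 4 cells was near 0. Celsr2, linked to dendrite upkeep in the rat, peaked at 8755 in P5 cell D3, with 8013 in P5 cell A6, 7629 in the E19 cell and 7190 in P5 cell A1. Both P4 cells lacked it, at 96.8 and 92.9, and 3 of the 4 P8 cells had it, at 3145, 1678 and 1203 for B3, A1 and A2, with 44.8 in B4. A second Celsr2 probe set was detected in P5 cell A2 (2414) and P8 cell A2 (1745) and in no other cell. It read 44.0 in P5 cell D3, 30.8 in P5 cell A6 and 102 in the E19 cell. Which cells had Celsr2 thus depended on the probe set.

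Outside the gene clusters, 8 of 12 protocadherins were detected, and Pcdh8 gave the clearest contrast between cells. Pcdh8, also called arcadlin, is known in rodent neurons for taking cadherins off synapses after activity. It was 26.7 in the E19 cell, and 16.9 and 21944 in P4 cells A3 and B4. The P5 pSynapsin cells E1, E3 and E4 had 15560, 10170 and 12507, and E2 had 11.4. The cultured P5 pNdrg4 cells C6, D3 and D6 had 11167, 11841 and 3257, and C1 and D5 had 84.8 and 1.16. Cells with and without Pcdh8 thus stood side by side in both of these groups. The 10 P5 cells with no culture stated spanned 2.52 to 1001 with a median of 30.2, and only A8 reached the threshold. At P8 it was 13835 in B3 and 6800 in A2, against 1.97 in B4 and 1.63 in A1. The median over its 10 detected cells was 11504. A second Pcdh8 probe set was detected in 9 of those 10 cells, all but P5 cell A8, and in no other cell.

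Pcdh8 was detected in 7 of the 10 cells with Cdh22, the cadherin left out of the set, and in 3 of the 16 cells without it. Of the 374 genes detected in exactly 10 cells, 7.22% were in at least 7 Cdh22 cells. It was in 0 of the 4 cells that had Gjd2, Dab1 and Nfia together, genes of the AII amacrine cell that links rods to cone circuits, and in 10 of the 22 other cells, while 12% of those 374 genes were in none of the 4. Its signals over 26 cells were most like those of Cep43 (Pearson r 0.77), Ssc5d (r 0.77) and Shprh (r 0.77). Each of the 16 members detected in 4 or more cells had such a best partner at r of 0.632 to 0.909, with a median of 0.732, while the median best partner over 6038 genes was at 0.742. The likeness of members to other genes was thus ordinary for this table, and since all genes shared the 26 cells and their depth, it is a description only. The highest was between Pcdh9 and Bbs4 (r 0.91).

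Pcdh19, a protocadherin on the X chromosome that acts together with Cdh2 in zebrafish, was detected in 11 cells (42.3%; 23.4 to 63.1%). It had 10386 in the E19 cell and 1352 and 3609 in the P4 cells, so that, like Cdh2, it was detected in all 3 of the youngest cells. In the P5 pSynapsin cells it was 2473 in E4 and at most 56.8 in the other 3, and in the cultured P5 pNdrg4 cells it was 2118 in C6 and at most 69.6 in the other 4. Among cells with no culture stated it was detected in A6 (7359), A7 (1849), B4 (1250) and A8 (1073). At P8 it was 1249 in B4 and 2376 in A2, against 21.6 in B3 and 7.02 in A1. A second Pcdh19 probe set reached 34460 and shared 3 of its 5 detected cells with the first, so which cells had Pcdh19 depended on the probe set.

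Pcdh9, another protocadherin with roles in neuronal wiring, was detected at 5693 in P5 cell C6, 3395 in P5 cell D5, 2209 in P8 cell A2 and 1158 in P8 cell B3, and at no more than 340 in the other 22 cells. With the median over a gene's probe sets, Pcdh9, Pcdh18, Pcdh10 and Pcdhb16 were each detected in 1 cell, Cdh4 in 2 and Pcdh19 in 3. Pcdh18 was detected in P5 cell B4 (4079), P5 cell D3 (2336), the E19 cell (2089) and P5 cell E1 (1215). A second Pcdh18 probe set read 20722 in the E19 cell and 4708 in P5 cell B3, and was below 1000 in the other 24 cells. Pcdh10, which binds actin regulators, was detected in P5 cells C6 (4335), A8 (2787) and D3 (1757). Each of these was detected in at most 2 cells of any group. Pcdh7 was seen in P8 cells A2 (5640) and B3 (3029), Pcdh17 in P8 cells A1 (3142) and B4 (2089), and Pcdh11x in P8 cell B4 (2459) and P5 cell D6 (1533). A second Pcdh11x probe set was detected in P5 cell D3 alone (1048). It read 1.19 in P8 cell B4 and 5.12 in P5 cell D6, so which cells had Pcdh11x depended on the probe set.

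Among the 4 P8 cells, the pSynapsin cell B3 and the pNdrg4 cell A2 shared Celsr2, Pcdh7, Pcdh8 and Pcdh9, while B3 and the pNdrg4 cell A1 shared Celsr2 alone. The pSynapsin cell B4 shared Celsr3 and Pcdh17 with A1, and Celsr3 and Pcdh19 with A2. B3 and B4, both pSynapsin cells, shared 0 members, and A1 and A2, both pNdrg4 cells, shared Celsr2 and Celsr3. Over all genes, B3 and A2 shared 2530 detected genes, the most of any pair of P8 cells, and B4 and A1 shared 1928, the fewest. B3 and A2 also had the most detected genes of the P8 cells, at 3998 and 4180, against 3467 in B4 and 3382 in A1. The part of this depth in the sharing was not tested. Of the 1068 genes detected in exactly 2 cells, 1.03% were in B3 and A2, as Pcdh7 was, and 0.655% were in B4 and A1, as Pcdh17 was. Of the members shared by B3 and A2, only Pcdh8 was detected in both by a second probe set (4463 and 3435). Second probe sets read 21.2 in B3 for Celsr2, 196 in A2 for Pcdh9 and 147 in B4 for Pcdh17. For Pcdh19 the second read 325 in B4 and 413 in A2, and the other Pcdh7 probe sets were below 1000 in every cell.

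Both cells with Pcdh17, chosen after its values were seen, also had the gap junction gene Gjd2, which was detected in 5 cells (P5 cells E2, C6 and B1 and P8 cells B4 and A1). Pcdh17 was 785 in P5 cell C6, below the threshold. A second Pcdh17 probe set was detected in P8 cell A1 (3260) and P5 cell E2 (3141), again cells with Gjd2. Of the 1068 genes detected in exactly 2 cells, 5.06% had both in Gjd2 cells.

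**Figure D2:**
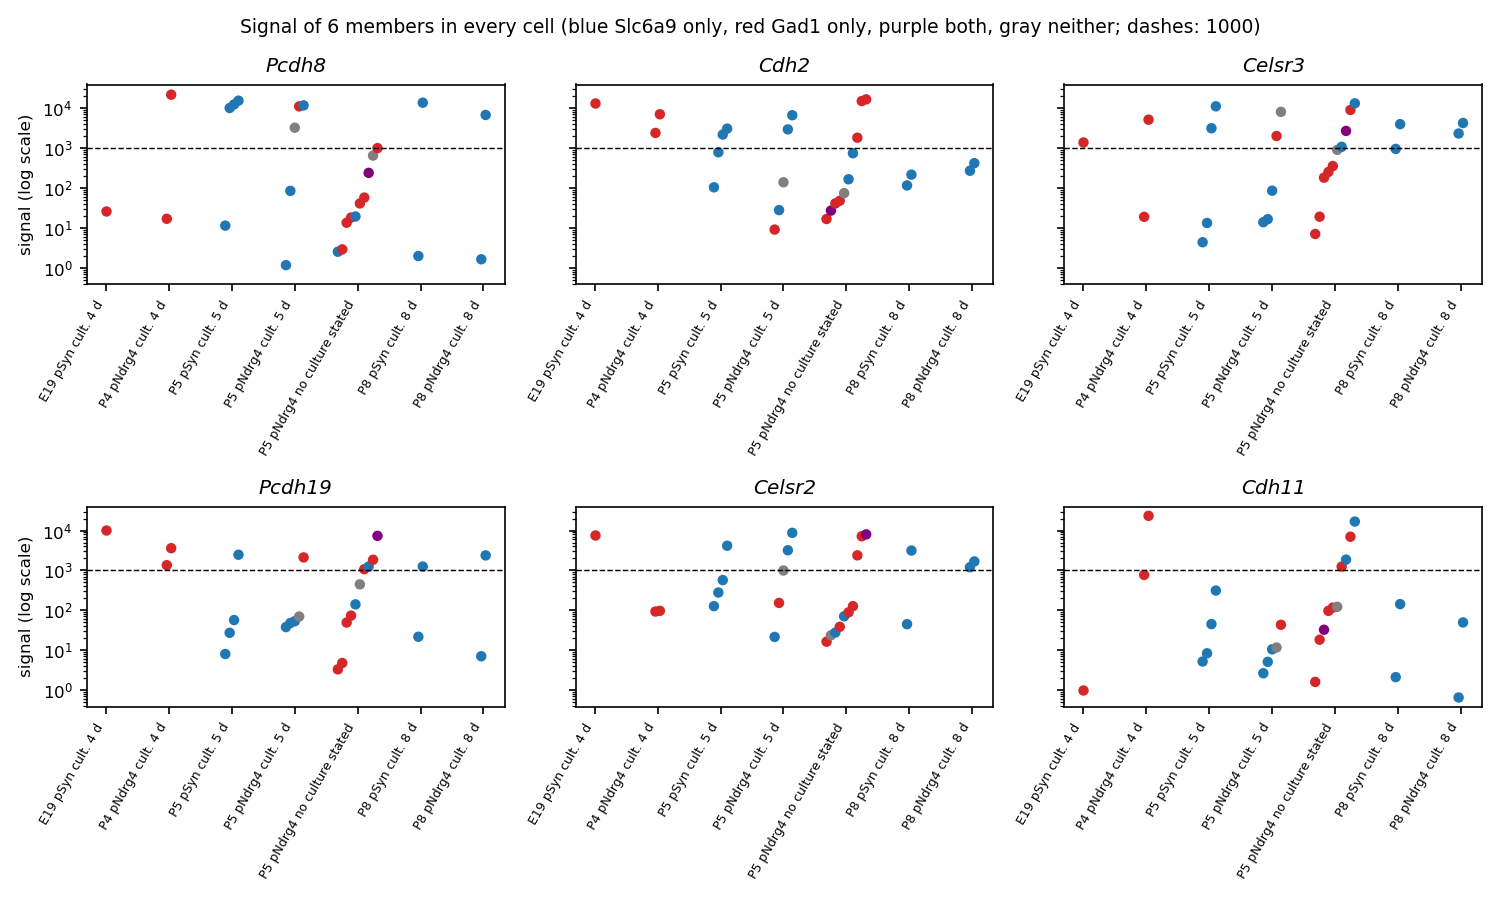
Signal (log axis) of 6 members in each cell, coloured by transmitter class, by group, with the points of a group in order of signal and a line at the threshold of 1000. In the cultured groups Pcdh8 lies at 3257 or more in some cells and at 84.8 or less in the others, and Cdh2 lies below 1000 in all 4 P8 cells.

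Of the 22 beta protocadherins, each a single-exon gene of the cluster, 13 were detected. Pcdhb7 was the most frequent, in 8 cells (30.8%), with 19014 in P5 cell A8, 11383 in A1, 5328 in D6, 4981 in P4 cell B4, 4637 in P5 cell A6, 3950 in E1, 3536 in P4 cell A3 and 2886 in P8 cell A1. In the other 18 cells it was at most 77.5, so no reading lay near the threshold. Pcdhb16 reached 17104 in P5 cell B1 and 1735 to 2689 in P5 cells A5, A7, E3 and D5. A second Pcdhb16 probe set was detected in P5 cell A5 alone (1973) and read 41.4 in P5 cell B1. Another was at most 124 in every cell. The place of Pcdhb16 among the members bright in few cells thus rests on the chosen probe set. Pcdhb9 was 13424 in P5 cell A6, 4571 in P8 cell B3 and 4012 in P5 cell D5, with at most 67.3 elsewhere. Pcdhb22 was 11145 in P5 cell B3 and at most 145 in all other cells. The beta protocadherins are close paralogs, so a probe set could also read a relative, and each of these genes is uncertain to that extent.

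Pcdhb21 was detected in P5 cells E1 (7798), E4 (3192) and E2 (2571) and in P4 cell A3 (2366). Pcdhb20 was detected in P5 cells D5 (6408) and A1 (3266), in P4 cell A3 (5012) and in the E19 cell (4900). Pcdhb3 was detected in P5 cells A2 (6572), E2 (2943), A5 (2506) and D6 (1371). Pcdhb20 and Pcdhb3 were thus spread over 4 and 3 groups, while 3 of the 4 Pcdhb21 cells were P5 pSynapsin cells. A second Pcdhb21 probe set was detected in P4 cell A3 alone, at 15393, so which cells had Pcdhb21 depended on the probe set. Pcdhb10, Pcdhb15 and Pcdhb17 were detected in 2 cells each, and Pcdhb4, Pcdhb12 and Pcdhb19 in 1 each, between 1047 and 7440.

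Single cells held few beta protocadherins at a time: 4 cells had none, 11 had 1, 8 had 2, 1 had 3 and 2 had 4. The cells with 4 were P4 cell A3 (Pcdhb7, Pcdhb17, Pcdhb20 and Pcdhb21) and P5 cell D6 (Pcdhb3, Pcdhb7, Pcdhb10 and Pcdhb15). The 22 cells with at least 1 held 19 distinct sets. The sets that recurred were Pcdhb7 alone, in P4 cell B4, P5 cell A8 and P8 cell A1, and Pcdhb16 alone, in P5 cells E3 and A7. Of 325 pairs of cells, 265 shared no beta protocadherin, 58 shared 1 and 2 shared 2. With 12 of the 13 detected genes in 1 to 5 cells, few shared genes follow from the counts alone, and no comparison with other genes of like counts was made. The other 36 members gave 24 distinct sets in 26 cells. Over the 26 cells, the Spearman rho with the number of genes detected per cell was -0.20 for the number of beta protocadherins and 0.23 for the number of all members, both as descriptions of these cells.

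The gamma cluster was represented by Pcdhgc4, an isoform needed for interneuron survival in mice. It was 5977 in P5 cell D3, 5831 in P8 cell A1, 2876 in P5 cell C6, 2015 in P5 cell C1, 1749 in P5 cell A2, 1598 in P5 cell B2 and 1226 in P4 cell A3. In the E19 cell, the P5 pSynapsin cells and the P8 pSynapsin cells it was at most 59.3, so all 7 cells with Pcdhgc4 carried the pNdrg4 reporter. Most of the cells measured carried that reporter, and no share over other genes detected in 7 cells was computed.

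**Figure D3:**
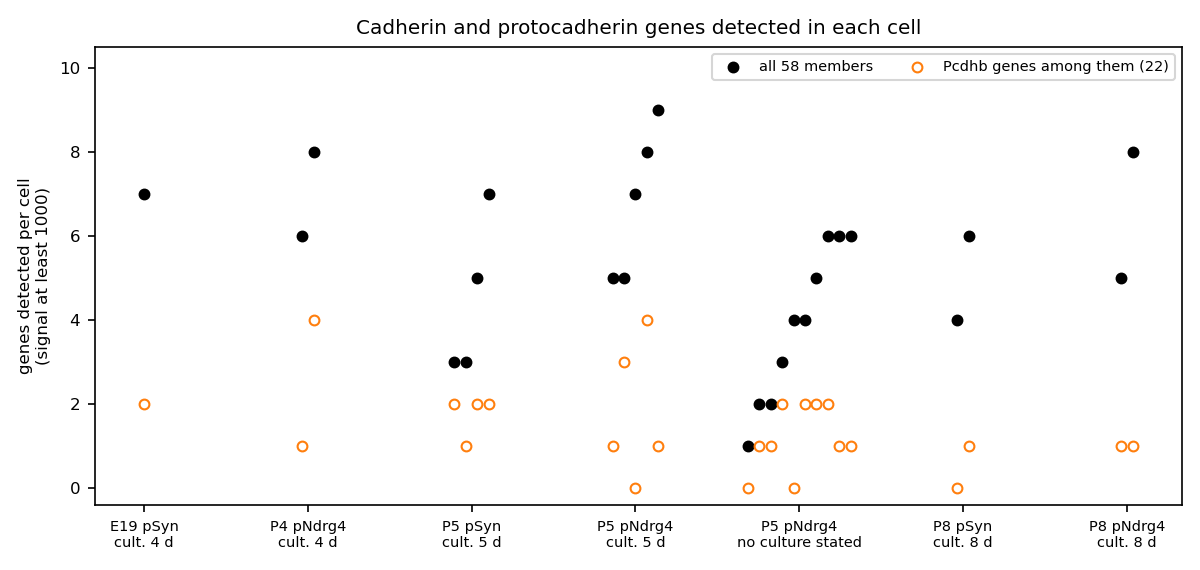
Number of detected members in each of the 26 cells by group, as filled points for all 58 members and open points for the 22 beta protocadherins among them. Totals run from 1 to 9, and no cell has more than 4 beta protocadherins.

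Pairs of members were compared by the phi coefficient, a correlation of detected with not detected, over the 120 pairs of 16 members found in 4 to 20 cells. Phi spanned -0.39 to 0.62 with a median of 0. Cdh7 and Pcdh8 had the highest phi, since all 5 cells with Cdh7 had Pcdh8. Celsr3 and Pcdh19 were both detected in 9 cells (phi 0.54), all 4 Pcdhb20 cells had Cdh2 (phi 0.54), and 5 of the 6 Cdh4 cells had Celsr2 (phi 0.51). At the low end, Cdh11 and Celsr2 were together in 0 cells (phi -0.39), and so were Pcdh19 and Pcdhb3 (phi -0.37). Each of the 4 highest pairs rests on the chosen probe sets. Only 2 of the 5 cells of the other Cdh7 probe set had Pcdh8, and only 2 of the 5 cells of the other Pcdh19 probe set had Celsr3. The other Cdh2 probe set shared 2 of its 4 cells with Pcdhb20, and the other Cdh4 probe set shared 1 of its 2 cells with Celsr2.

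The start-site windows of Cdh7 and Pcdh8 are shown, since this pair had the highest phi. They are RefSeq windows of build GRCm38.p6, 250 bases before to 50 after the start, printed 5′ to 3′ on the gene's strand. The Cdh7 window, the first listed of 3, lies at chr1:109982650-109982949 on the plus strand, and that of Pcdh8 at chr14:79771263-79771562 on the minus strand. Capitals mark matches on either strand to the E-box motif CANNTG. They also mark the motif TATAAA of a promoter with a TATA box, and the motif CCAAT.
Cdh7: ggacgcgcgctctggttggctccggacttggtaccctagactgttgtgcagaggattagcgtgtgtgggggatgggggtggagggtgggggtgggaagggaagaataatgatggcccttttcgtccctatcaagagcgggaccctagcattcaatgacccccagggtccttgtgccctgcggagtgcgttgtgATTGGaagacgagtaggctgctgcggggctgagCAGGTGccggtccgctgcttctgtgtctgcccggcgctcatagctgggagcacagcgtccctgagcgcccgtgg
Pcdh8: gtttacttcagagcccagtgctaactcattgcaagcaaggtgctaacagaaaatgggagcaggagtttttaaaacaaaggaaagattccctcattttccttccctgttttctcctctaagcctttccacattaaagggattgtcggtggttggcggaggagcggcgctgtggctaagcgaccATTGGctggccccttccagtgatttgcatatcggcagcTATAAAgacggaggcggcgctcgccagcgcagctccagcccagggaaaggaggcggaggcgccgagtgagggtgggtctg
The Cdh7 window holds 1 CANNTG and 1 CCAAT match, which reads ATTGG on the printed strand, and no TATAAA. The Pcdh8 window holds 1 TATAAA and 1 CCAAT match and no CANNTG. Of 32851 windows, 72.3% hold CANNTG, 13.6% TATAAA and 37.4% CCAAT. Of the other Cdh7 windows, the next holds 1 CANNTG and 1 CCAAT match and the last 3 CANNTG and no CCAAT match, so the motifs shared with Pcdh8 depend on the window taken. These matches describe letters, not bound sites. In all, 21 of the 58 members matched an entry in the table of windows.

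By transmitter class, none of the 25 members detected in at least 2 cells was detected in a share of Slc6a9-only cells that differed by 30 percentage points or more from that in Gad1-only cells. Of all 8570 genes detected in at least 2 cells, 15.3% were higher by that much in Slc6a9-only cells and 2.18% lower. The median difference was 7.69 points for members and 10.8 points for all genes. The median number of genes detected was 3467 in Slc6a9-only cells and 2466.5 in Gad1-only cells, and the part of this depth in the shares was not tested. Class also ran with age, as the 3 youngest cells (E19 and P4) were all Gad1-only and the 4 P8 cells all Slc6a9-only. The widest differences were those of Cdh2 and Pcdh19, each in 4 of 13 Slc6a9-only cells and 6 of 10 Gad1-only cells (-29.2 points). Every one of the youngest cells had both genes, while at P8 no cell had Cdh2 and 1 cell of each reporter had Pcdh19. The part of age in these class differences was not tested. In the other direction from Cdh2 and Pcdh19 lay Celsr2 and Pcdh8, each in 6 of 13 Slc6a9-only cells and 3 of 10 Gad1-only cells. Celsr3 lay there too, in 7 of 13 and 4 of 10. Of the members bright in few cells, Cdh11 was in 2 of 13 Slc6a9-only and 3 of 10 Gad1-only cells, and Pcdhb16 in 3 of 13 and 2 of 10. Pcdhb9 was in 2 Slc6a9-only cells, 0 Gad1-only cells and the 1 cell with both markers, and Pcdhb22 was in 1 Gad1-only cell alone. Cdh22, outside the set, was in 8 of 13 Slc6a9-only and 2 of 10 Gad1-only cells, past the step of 30 points.

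The remaining comparisons used means of log2 signals raised to 200 (7.64 on the log2 scale), over the 25 members detected in at least 2 cells, and counted differences of at least 1 on the log2 scale (2-fold). Culture, reporter and age all drew on the same 5 cultured P5 pNdrg4 cells, so they are not independent of each other. Differences against cells at the floor are understated.

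In cultured P5 pNdrg4 cells, set against those with no culture stated, 8 members were higher and 1 was lower by this measure, where 26.5% of all genes were higher and 9.05% lower. The median difference was 0.39 for members and 0.31 for all genes, so members stood close to the table as a whole. Pcdh8 had the widest difference, with a mean of 10.79 ± 2.96 (SD, n = 5 cells) in cultured cells and 8.07 ± 0.85 (n = 10 cells) in cells with no culture stated, a difference of 2.71. It was detected in 3 of 5 and 1 of 10 cells, and the groups overlapped. Pcdh9 (1.94), Pcdhgc4 (1.77), Cdh7 (1.45), Pcdhb10 (1.39) and Cdh13 (1.34) followed, and each was detected in 2 or 3 of the 5 cultured cells. With the median over a gene's probe sets the difference was 0 for Pcdh9 and 0.08 for Cdh13. Without P5 cell D6 the number higher was 5 and that of lower members 3, and without D3 the number higher was 5. Cdh11 lay the other way, at 7.64 in all 5 cultured cells and 9.38 ± 2.46 in the 10 others, a difference of -1.74. The cultured cells also had more detected genes, with a median of 3256 against 2361.5, and more detected members, with a median of 7 (5 to 9) against 4 (1 to 6); whether depth played a part was not tested. Transmitter class moved with this comparison too: 3 of 5 cultured cells were Slc6a9-only and 1 was Gad1-only, against 2 and 6 of the 10 others. Gad1 differed by -2.66 and Slc6a9 by 2.59, while the other GABAergic gene, Gad2, differed by 0.86. The Müller glia gene Vim differed by -3.00 and Clu by 0.89. Of the 6 Müller glia genes detected in at least 2 cells, 3 were lower and 0 higher by at least 1. The part of class in these values was not tested.

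In P5 pSynapsin cells, set against cultured P5 pNdrg4 cells, 2 members were higher and 8 lower, where 20.7% of all genes were higher and 18% lower. The median difference was -0.45 for members and 0 for all genes. Pcdhb21 was higher, at 10.89 ± 2.27 in 4 pSynapsin cells and 7.97 ± 0.73 in 5 pNdrg4 cells (difference 2.91), and so was Pcdh8, at 12.12 ± 2.997 and 10.79 ± 2.96 (1.34). At P8, where no cell had Pcdhb21, its difference was 0, and that of Pcdh8 was 0.51. A second Pcdhb21 probe set was at most 66.5 in the P5 pSynapsin cells and 71.0 in the cultured P5 pNdrg4 cells. The P5 difference of Pcdhb21 thus rests on 1 probe set. Pcdhgc4 was lowest, at 7.64 in all 4 pSynapsin cells and 10.06 ± 2.28 in pNdrg4 cells (-2.42), and its P8 difference was -2.43, from 1 of 2 pNdrg4 cells. The value for Pcdh8 hung on single cells, at 0.55 without P5 cell C1 or D5 and 2.83 without E2. Pcdh9 (-1.94, or 0 with the median over its probe sets), Pcdh10 (-1.51), Pcdhb10 (-1.39), Cdh13 (-1.34) and Cdh7 (-1.22) were at the floor or in 1 cell in the pSynapsin group. Rod genes moved with the reporter: the summed signal of the 10 rod genes measured had a median of 17247 (7581 to 70430) in pSynapsin cells and 2717 (316 to 5948) in pNdrg4 cells, with Gngt1 and Prph2 below 1000 throughout. All 4 pSynapsin cells were Slc6a9-only, against 3 of 5 pNdrg4 cells. Of the amacrine genes, Tfap2b (-3.55) and Tfap2a (-3.10) were lower in pSynapsin cells, with Pax6 at -0.40 and Slc32a1 at -0.07. The GABAergic genes Gad2 (-2.45) and Gad1 (-1.27) were also lower. Of the AII genes, Dab1 (3.04) and Nfia (1.42) were higher, with Gjd2 at 0.65 and Prox1 at -0.40. Of the Müller glia genes, Vim (2.19) and Glul (1.14) were higher, Clu (-2.27) was lower, and the others differed by less than 1. The part of these genes and of class in the result was not tested.

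In P8 cells, set against cultured P5 cells within each reporter and averaged, 3 members were higher and 3 lower, where 18.5% of all genes were higher and 12.7% lower. The median difference was -0.05 for members and 0.05 for all genes. Pcdh7 (2.03), Pcdh17 (1.64) and Celsr3 (1.54) were higher. Pcdh7 and Pcdh17 were each detected in 1 cell of each P8 group and in 0 of the 9 cultured P5 cells, and Celsr3 in 3 of 4 P8 and 4 of 9 P5 cells. Pcdhb21 (-1.78), Cdh2 (-1.66) and Pcdh8 (-1.01) were lower. For Cdh2, pSynapsin cells had 7.70 ± 0.08 at P8 and 9.99 ± 1.77 at P5, and pNdrg4 cells had 8.40 ± 0.45 at P8 and 9.43 ± 2.49 at P5. Cdh2 was in 0 of 4 P8 cells and 4 of 9 P5 cells, and its difference was negative in both reporters (-2.29 and -1.04 for pSynapsin and pNdrg4). The second Cdh2 probe set read 423 and 760 in P8 cells A1 and A2, and 67.1 to 1204 in the cultured P5 pNdrg4 cells. In pSynapsin cells it read 103 and 41.2 at P8, and 38.1 to 406 at P5. By this probe set the P8 pNdrg4 cells were not lower. The P5 and P8 pSynapsin cells were all below the threshold by it, at 406 or less. The age difference of Cdh2 (-1.66) thus rests on 1 probe set. The age difference of Pcdh8 turned positive without P8 cell B4 (0.52) or without P8 cell A1 (0.26), that of Pcdh7 was 0.83 without A2, and that of Pcdh17 was 0.65 without A1. With the median over its probe sets the difference of Pcdh7 was -0.11. The summed rod signal was also higher at P8, with medians of 53824 in pSynapsin and 41633 in pNdrg4 cells, and all 4 P8 cells were Slc6a9-only, against 4 of 4 pSynapsin and 3 of 5 pNdrg4 cells at P5. The part of either in these values was not tested.

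**Figure D4:**
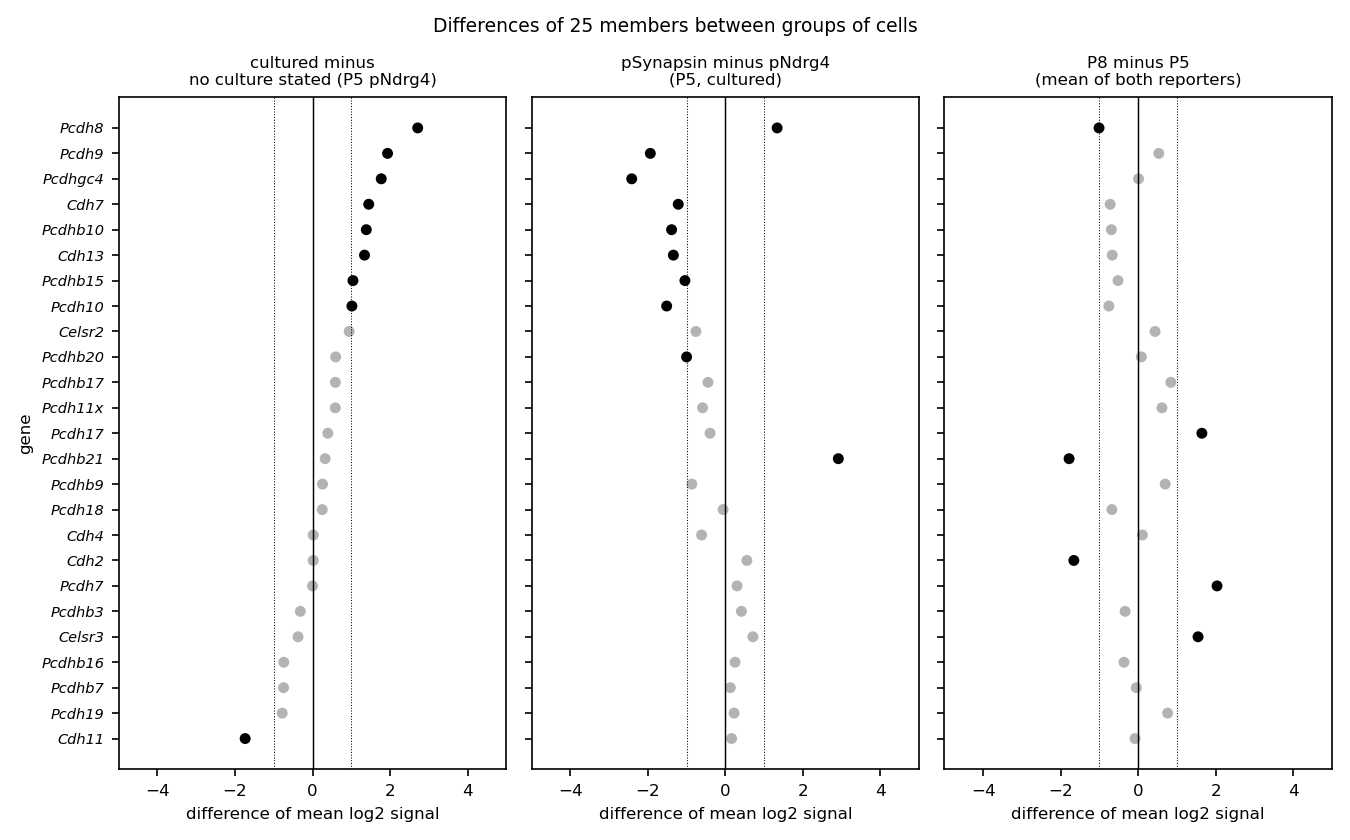
Differences of mean log2 signal for the 25 members detected in at least 2 cells, by culture, reporter and age, with dotted lines at 1 and -1 and black points beyond them. Pcdh8 is highest for culture at 2.71, Pcdhb21 for reporter at 2.91 and Pcdh7 for age at 2.03.

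Genes that work with cadherins were read in the same cells, where 55.9% of all genes were detected in at least 1 cell. Of 10 classical cadherin partners, 9 were detected, with Ctnnb1 (beta-catenin) in 25 cells, Afdn in 17, and Ctnna2 (the neuronal alpha-catenin) and Pkp4 in 15 each, and Ctnna3 in 0. By the culture comparison, 2 of those 9 were higher, among them Pkp4 with a difference of 3.24, and 2 were lower. The shares over all genes were 26.5% higher and 9.05% lower. Of 10 measured protocadherin partners and regulators, 8 were detected: Wasf1 in 19 cells and Cyfip2, Nckap1 and Abi2 in 18 each, all of the complex that drives actin branching, and the cluster regulators Ctcf in 15 and Smchd1 in 14. Among these 8, 3 were higher and 3 lower by culture, where 26.5% of all genes were higher and 9.05% lower. Ret, a receptor kinase that associates with clustered protocadherins, was detected in 8 cells, 7 of them Slc6a9-only and 0 Gad1-only, a gap past the 30 points that 15.3% of all genes passed. Its reporter difference was 3.31 and its age difference 1.51. Of 9 planar polarity genes that work with Celsr, 5 were detected, led by Fzd3 in 19 cells and Dvl1 in 15, while Fzd6, Vangl1, Vangl2 and Dvl3 were below 1000 in all cells. Among genes outside the rule, the calsyntenin Clstn1 was detected in 22 cells and the giant cadherin Fat3, which shapes amacrine dendrites in mice, in 15.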

How the data were processed

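The deposited values were signal intensities on a linear scale. According to the submitters' processing notes the authors used MAS5, of a version not given in the sources used here. Each array had a mean of 500 after trimming 2% from both ends, so no further scaling was applied. The deposited table held no detection calls, and 0 value columns lacked a sample. Of 45101 probe sets, 34945 named 1 gene, 932 several and 9211 none, by the platform annotation, and 34741 matched a current Entrez identifier; the symbols of all 58 members were unchanged. Probe sets of several genes were not used, and control probe sets were left out. Each of the 18193 genes was read from its probe set with the highest mean log2(max(signal, 200)) over the 26 cells. Detection was set at 1000 and bright at 10000.

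The software was scipy 1.17.1, pandas 2.3.3 and numpy 2.4.6 under Python 3.11.15, with matplotlib 3.10.9 for figures. Groups followed the age, the reporter and any culture given in the labels. Since no animal or culture was named, each group was 1 sample, and no p-value or standard error was computed; intervals of shares are exact Clopper-Pearson at 95% and cover counting error only. Culture and reporter differences were differences of group means of log2 signals, and the age difference was averaged over both reporters; genes detected in at least 2 cells entered (8570 genes, 25 of them members). Members detected in at least 3 cells or reaching 10000 were named with their signals, and up to 6 members on each side past 2-fold were named per comparison. Members and gene lists were chosen with earlier results of these data known. The code was tested on simulated data. Alternatives covered the detection and brightness thresholds, probe set, floor, normalization, filter, group medians and each cell left out in turn.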

Additional observations from a re-analysis of the deposited data

Results flagged for a closer look

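Examined were 52 sets of values: 18 members, the count of detected members and the beta protocadherin count, in groups of 4 to 10 cells. In 24 of them 1 cell stood apart from the others of its group by Dixon's criterion. The rate by chance of about 1 in 20 groups does not apply here, because low signals were raised to a common floor. A set with all cells but 1 at that floor is flagged whatever the remaining reading. Genes detected in 1 cell of a group give such sets. The 24 sets are thus no measure of an excess over chance. Among the P5 pSynapsin cells, E1 stood above for Pcdh18 (1215) and Pcdhb7 (3950), E2 above for Cdh4 (968) and Pcdhb3 (2943) and below for Pcdh8 (11.4). E3 stood above for Pcdhb16 (2256) and Cdh11 (313) and below in having 1 beta protocadherin, and E4 above for Cdh7 (1682) and Pcdh19 (2473). The Cdh11 and Cdh4 readings there were below the threshold of 1000.

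Among the cultured P5 pNdrg4 cells, D5 stood above for Pcdhb20 (6408), Pcdhb9 (4012), Pcdhb16 (1735) and Pcdhb21 (621, below the threshold). D6 stood above for Pcdhb7 (5328) and Pcdhb3 (1371), D3 for Pcdh18 (2336) and C6 for Pcdh19 (2118). Of the P5 cells with no culture stated, A6 stood above for Pcdhb9 (13424), A7 for Cdh4 (11823), A8 for Cdh7 (7843) and Pcdh10 (2787), B4 for Pcdh18 (4079) and A1 for Pcdhb20 (3266).

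Signal also appeared in probe sets left out because each is named for several alpha protocadherins (Pcdha), the third gene cluster. Of 6 such probe sets, 4 reached 1000 somewhere. Those named for 14 genes had a highest signal of 14045 with 16 cells detected, 8481 with 11 cells and 20258 with 4 cells, and 1 named for 9 genes reached 21825 in 1 cell. P5 cell B2, which had no beta protocadherin, held the highest signal of 3 of these 4. No alpha gene can be named from them.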

How the results depend on the processing

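Of the recomputed summary values, 163 stayed within 1.5 times the count or within the spread, and 42 did not. The 4 members bright in few cells became 2 with detection at 500 or the median probe set per cell, and 11 or 1 with bright set at 5000 or 20000. By class, 1 member was higher with the highest probe set per cell, and 1 was lower with that setting or with detection at 500, against 0. For culture, the 8 higher members became 3 with the median probe set or a floor of 500, 5 with quantile normalization and 4 with group medians; the 1 lower became 2 with the highest or median probe set or quantile normalization and 4 with a floor of 50; the median of 0.39 became 0 without the filter or with group medians. For reporter, the 2 higher became 4 with a floor of 50 or group medians; the 8 lower became 3 with the median probe set or group medians and 2 with a floor of 500; the median of -0.45 became -0.13 with quantile normalization and 0 without the filter or with group medians. For age, the 3 higher became 5 with a floor of 50 and 7 with group medians, the 3 lower became 7 with a floor of 50, and the median became 0.42 with group medians. Leaving out each cell in turn gave 5 to 9 higher and 1 to 3 lower for culture, 1 to 4 higher and 6 to 9 lower for reporter, and 3 to 5 higher with a median of -0.43 to 0.0084 for age; the age difference of Pcdh8 ranged from -2.54 to 0.52, and that of Pcdh7 was -0.11 with the median probe set. The number higher was 5 without P5 cell D3 or D6 (culture), where the number lower was 2 without C6 or D5 and 3 without D6; it was 1 without E3, E4 or C1 and 4 without D6 (reporter), and 5 without P8 cell B3, B4 or A1 (age). The cause of these shifts was not tested. No paired analysis was possible because the replicate numbers are only names and the results come from no test. With 1 cell per array and groups of 1 to 10 cells, readings near 1000 cannot be told from the threshold.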
